A study of Drosophila melanogaster with 15 samples.

Results

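The 44 genes described here are protein-coding genes of chromosome 4 of Drosophila melanogaster, and they were followed in nuclear RNA from the mushroom body (MB) of naïve and trained flies with and without knockdown of trithorax (trx-KD). They were taken by name from a fixed list, 43 by current symbol and Tdg by its older name Thd1, and are 44 of 17559 genes in the count tables. The tables held 110 genes of chromosome 4, so that 66 others remained outside the list. The list was drawn up with values of these libraries in view and for the question of whether its genes differed by genotype, so the genotype differences of its members, and the number of members past a threshold in the genotype comparisons, are a description from which nothing is inferred. Which of these values were used to choose the genes is not recorded. The training differences were tested on the assumption that they played no part, and their p-values hold only as far as it does. The interaction of genotype and training is built from the genotype differences, so its member values are likewise a description.

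All flies carried UAS-unc84::GFP, a nuclear envelope tag, UAS-Dicer2 and the driver R14H06-Gal4, in a w* background. The trx-KD flies carried in addition the hairpin line P{GD4502}v37715, which the control flies lacked, and the controls named no other insertion in its place. There were 4 libraries of naïve controls, 4 of trained controls, 3 of naïve trx-KD and 4 of trained trx-KD, and each came from nuclei pulled from pooled fly heads with beads against GFP. Age and sex of the flies and the form of the training were not given in the labels, nor whether replicates came from separate cultures, so p-values measure only the spread between these libraries.

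Chromosome 4 is the smallest autosome of the fly, also called the dot chromosome. Most of it is packaged as heterochromatin, yet the genes within it are transcribed, and the protein Pof binds their bodies together with HP1 and the histone methyltransferase egg. Trithorax methylates histone H3 at lysine 4 and is known for keeping genes in an active state. Several genes of the chromosome are well known from neurons, among them CaMKII, a calcium-dependent kinase of memory formation, and unc-13, which primes synaptic vesicles for release.

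Between 14154045 and 45976562 counts fell on genes in each library, with a median of 24250938, and the members took between 1.67% and 2.12% of them. The target trx was at 562 to 609 CPM (counts scaled by library size) in the 8 control libraries and at 499 to 549.9 CPM in the 7 trx-KD libraries, which did not overlap. Its log2 fold change was -0.11 (SE 0.06, edgeR adjusted p = 0.304) in naïve and -0.15 (SE 0.05, edgeR adjusted p = 0.0744) in trained flies. Of 15 Kenyon cell markers, genes of the intrinsic MB neurons, none was at 0, and their summed level was 16138 to 19045 CPM in naïve controls and 17512 to 18638 CPM in naïve trx-KD. After training it was 17375 to 19201 CPM in controls and 19723 to 22329 CPM in trx-KD, with no overlap. Among 6 glial markers moody and alrm were at 0 and the sum was 639 to 909.9 CPM over all libraries. Photoreceptor markers summed to 7237 to 14812 CPM, with Arr2 at 0 in every library beside Arr1 at 542 to 1312 CPM. Whether a marker at 0 was not expressed or not counted was not tested.

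The members spanned a wide range of levels. Mean CPM, not corrected for length, ran from 16.8 for fd102C, a forkhead transcription factor, to 2796 for unc-13, with a median of 183.7, and 30 of 44 members were above 100 CPM. Per kilobase of exon the highest were CaMKII at 182 CPM, Cadps, a protein of dense-core vesicle release, at 171 CPM and the plasma membrane calcium pump PMCA at 160.1 CPM. The lowest on this scale were fuss, a Ski family corepressor, at 4.89 CPM and the kinesin Kif3C at 5.24 CPM. The lowest count of any member in any library was 155, and all 44 passed the filter on low counts in each comparison. The 44 genes lie between positions 32478 and 1271759 of chromosome 4 (BDGP6.54 annotation, in dm6 coordinates), and 15 of them overlap a gene on the opposite strand.

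In naïve flies most members were slightly higher in trx-KD than in controls. The log2 fold change was above 0 for 33 members and below 0 for 11, with a median of 0.18 (1.13-fold) and a range of -0.30 to 0.34. Over all 9419 genes tested the median was -0.02. Under an adjusted p of 0.1 by edgeR were 12 members, all higher, namely CaMKII, Syt7, mGluR, Cals, Actbeta, unc-13, onecut, Kif3C, Ank, MED26, PlexB and Asator. Of all genes, 14.2% passed in this comparison, 6.27% as higher and 7.88% as lower. The share depended on level: above 200 CPM it was 26.4% of genes on the other chromosome arms, beside 7 of 20 members. The naïve trx-KD libraries lay wholly above the naïve controls for 17 members and wholly below for 0, against 11.7% and 11.3% of all genes.

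In trained flies the same comparison gave a larger median and fewer exceptions. Here 42 members had a log2 fold change above 0, and Ekar, a kainate-type glutamate receptor subunit, and bt, the giant muscle protein projectin, were the 2 below. The median was 0.22 (1.165-fold) and the range was -0.07 to 0.63, beside a median of -0.03 over all 9237 genes tested. The threshold was passed by 23 members, all higher, beside 13.9% of all genes, 7.12% as higher and 6.78% as lower. For 23 members every trained trx-KD library was above every trained control, and for 0 every one was below, against 9.32% and 8.51% of all genes. There were 10 members past the threshold in both naïve and trained flies, 2 in naïve flies alone, 13 in trained flies alone and 19 in neither. Of all genes, 14.2% passed in naïve and 13.9% in trained flies. The share of all genes past it in both was not computed, so this split is a description only.

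**Figure D1:**
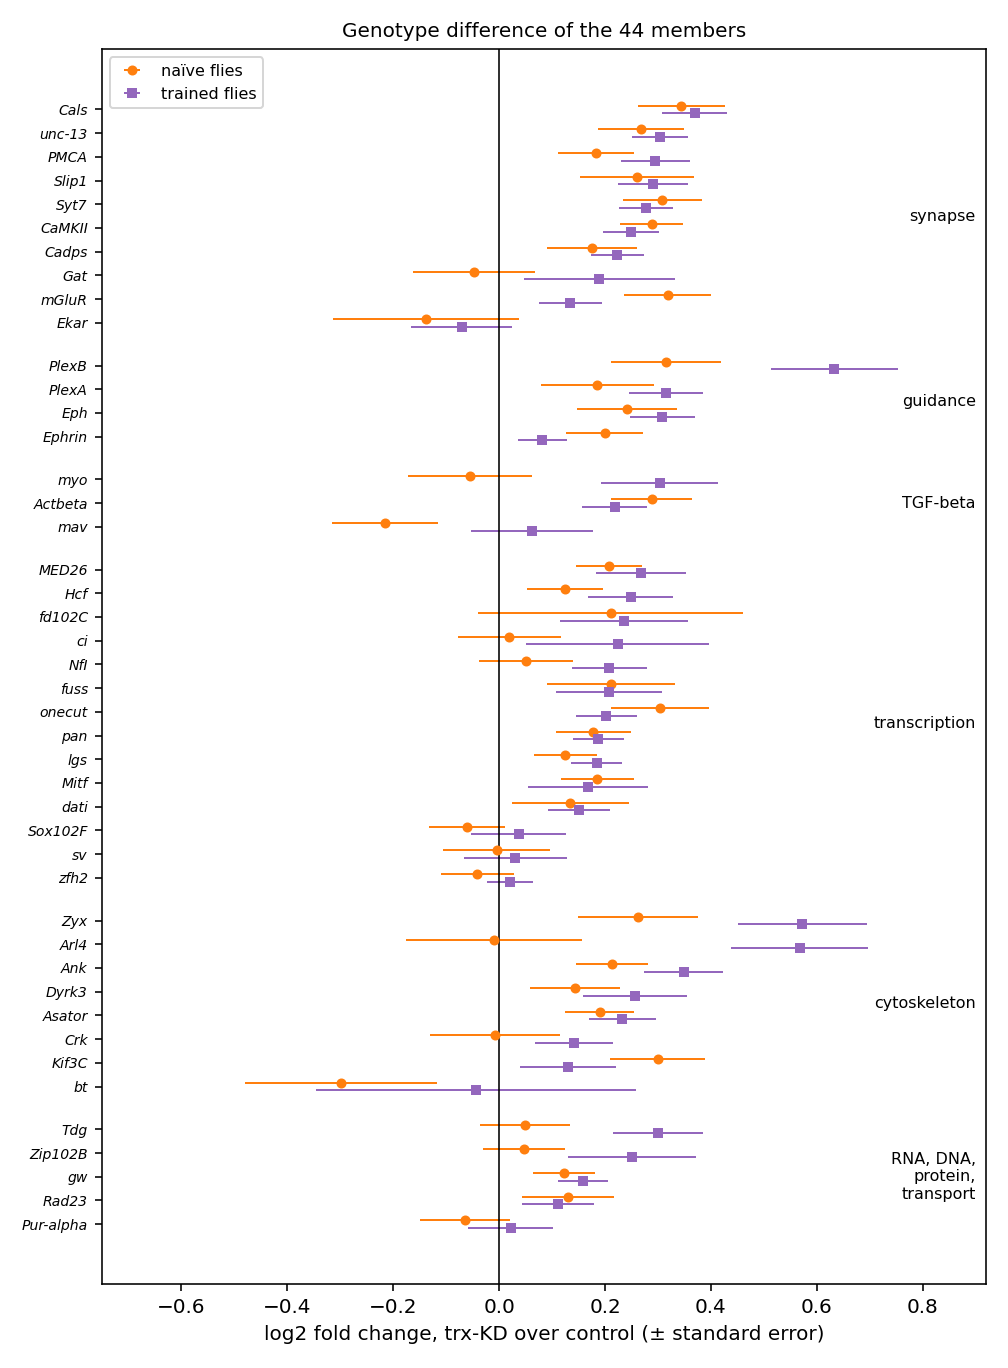
Log2 fold change of trx-KD over control for each of the 44 members, in naïve flies (orange circles) and trained flies (violet squares), with bars of 1 standard error, grouped by role. Most points lie right of 0, with medians of 0.18 and 0.22, and PlexB, Zyx and Arl4 stand farthest right in trained flies.

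The shift could be read library by library. As the median over members of log2 CPM relative to each gene's mean over all 15 libraries, trained controls were at -0.09, -0.05, -0.07 and -0.07, and trained trx-KD were at 0.06, 0.08, 0.30 and 0.17. Naïve trx-KD were at 0.12, 0.01 and 0.00, and naïve controls at -0.15, -0.20, -0.16 and 0.04. Control and trx-KD libraries did not overlap after training, whereas naïve control library 4 lay within the naïve trx-KD range. The 3 highest values belonged to the trained trx-KD libraries 3 and 4 and to naïve trx-KD library 1. Genes outside chromosome 4 had medians of -0.02 to 0.03 in every library.

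**Figure D2:**
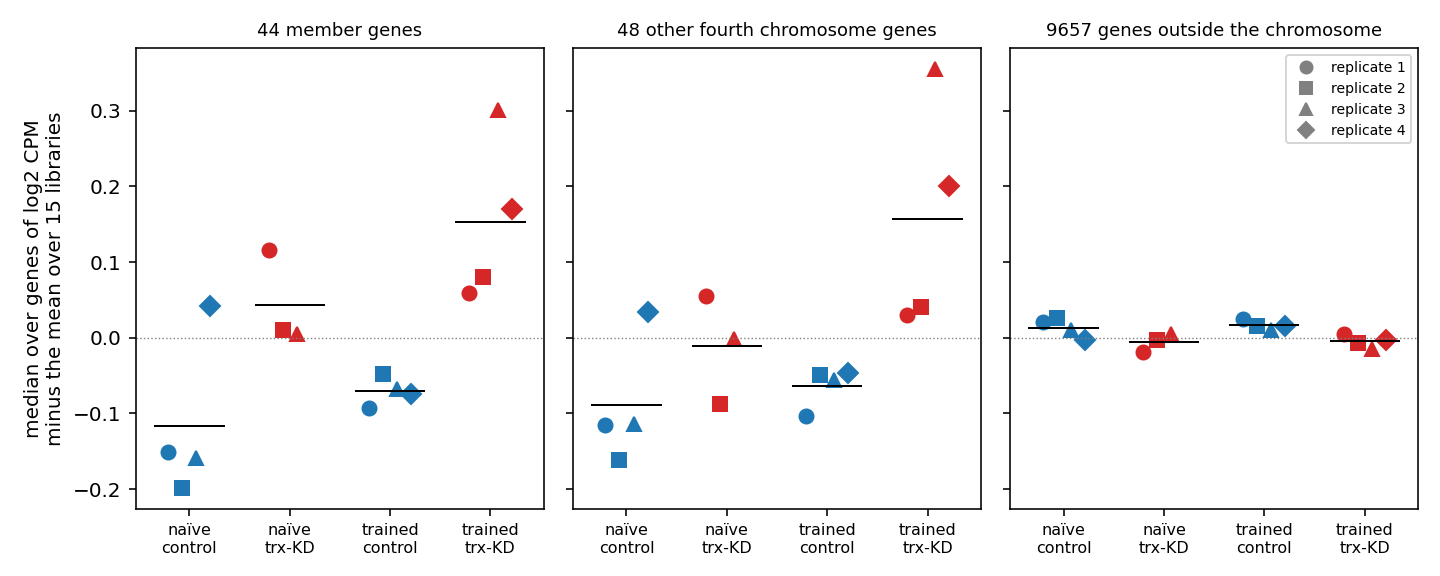
Median over genes of log2 CPM minus the mean of that gene over 15 libraries, for the members, for the 48 other genes of chromosome 4 that passed the filter and for the 9657 genes elsewhere, 1 symbol per library and a line at the mean of each group. The trained trx-KD libraries reach 0.30 among members, naïve control library 4 sits at 0.04, and genes elsewhere stay within -0.02 and 0.03.

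Because these libraries stand apart, the comparisons were repeated without them. Without naïve control library 4, the median in naïve flies was 0.22 and 28 members (63.6%) passed, 27 higher and bt lower, beside 27.4% of all genes. Without naïve control library 1, 2 or 3 it was 3, 4 and 4 members (6.82%, 9.09% and 9.09%), beside 7.08%, 9.55% and 9.52% of all genes. Without naïve trx-KD library 1 or 2 it was CaMKII alone (2.27%), beside 5.2% and 3.43%, and without library 3 it was 6 members (13.6%), beside 6.61%. In 5 of these 7 fits the share of members that passed was thus no higher than that of all genes. Without trained trx-KD libraries 3 and 4 together, a choice made after seeing the data, the median in trained flies was 0.15 and 13 members (29.5%) passed, all higher, beside 5.74% of all genes. With 1 library left out at a time, the trained comparison gave between 13 members (29.5%, without trained control library 2 or 4, beside 5.4% and 5.31% of all genes) and 27 (61.4%, without trained trx-KD library 2, beside 19.4%). It gave 14 (31.8%) without trained control library 3 or trained trx-KD library 4, beside 7.22% and 6.15%.

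The members of the synapse, of calcium signaling and of excitability had the highest median of any role in naïve flies, 0.26 on the log2 scale. Of these 10 genes 8 were above 0 in naïve flies, and 5 passed the threshold. For this and the other roles, the share of all genes past the threshold was 14.2% in naïve and 13.9% in trained flies. In trained flies 9 of 10 were above 0 with a median of 0.26, and 7 passed.

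CaMKII (FBgn0264607, positions 1035288 to 1053703) measured 751, 704, 741 and 755 CPM in naïve controls and 925, 875 and 896 CPM in naïve trx-KD. After training it measured 751, 814, 763 and 801 CPM in controls and 872, 899, 977 and 971 CPM in trx-KD. The trx-KD libraries were above the controls in both states without overlap, at log2 fold changes of 0.29 (SE 0.06) and 0.25 (SE 0.05).

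The vesicle priming factor unc-13 took the most counts of any member, at 2362, 2370, 2443 and 2799 CPM in naïve controls against 3162, 2961 and 2868 CPM in naïve trx-KD. Trained controls were tightly grouped at 2562, 2598, 2560 and 2558 CPM, and trained trx-KD were at 2944, 3057, 3470 and 3225 CPM. Neither pair of groups overlapped, with log2 fold changes of 0.27 (SE 0.08) and 0.30 (SE 0.05). It overlaps 3 noncoding genes on the other strand.

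Cals encodes calsyntenin, a cadherin of the postsynaptic membrane. It was at 320.1, 329, 348 and 397 CPM in naïve controls and at 464, 435 and 427 CPM in naïve trx-KD. In trained flies controls had 394, 387, 366 and 379.7 CPM and trx-KD had 472, 449, 524 and 529 CPM. With log2 fold changes of 0.34 (SE 0.08) and 0.37 (SE 0.06), it was the member with the highest value in naïve flies, and it shares sequence on the other strand with sv, whose values were -0.00 and 0.03.

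Syt7, a synaptotagmin that senses calcium, measured 319.9, 309, 321 and 368 CPM in naïve controls and 429, 392 and 400.4 CPM in naïve trx-KD. Trained controls were at 349, 355, 345 and 352 CPM and trained trx-KD at 405, 405, 452 and 437 CPM. The groups were apart in both states, and log2 fold changes were 0.31 (SE 0.08) and 0.28 (SE 0.05).

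Among the other members of this group, PMCA had 1064, 1056, 1092 and 1166 CPM in naïve controls and 1343, 1173 and 1201 CPM in naïve trx-KD. Its trained controls, at 1139, 1160, 1164 and 1169 CPM, lay below trained trx-KD, at 1328, 1290, 1602 and 1464 CPM. Values were 0.18 (SE 0.07) and 0.29 (SE 0.07) on the log2 scale.

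Cadps showed 871, 836, 878 and 1032 CPM in naïve controls, a range that reached into the 1086, 1010 and 961 CPM of naïve trx-KD. Trained libraries were apart, with 946, 967, 931 and 913 CPM in controls and 1050, 1052, 1180 and 1105 CPM in trx-KD. The log2 fold changes were 0.18 (SE 0.08) and 0.22 (SE 0.05).

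Slip1, a partner of the calcium-activated potassium channel Slowpoke, had 109.8, 115, 129 and 154 CPM in naïve controls and 158, 150.2 and 148 CPM in naïve trx-KD, so that control library 4 overlapped. In trained flies it had 137, 123, 125 and 119 CPM in controls and 149.8, 148, 169.9 and 149 CPM in trx-KD, without overlap. Log2 fold changes were 0.26 (SE 0.11) and 0.29 (SE 0.07).

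The metabotropic glutamate receptor mGluR was the member of this group that was apart in naïve flies but not in trained flies. Naïve controls measured 113, 117, 129.6 and 139 CPM and naïve trx-KD 161, 154 and 150.0 CPM, at a log2 fold change of 0.32 (SE 0.08). Trained controls measured 135, 133, 123 and 132 CPM and trained trx-KD 149.8, 135, 151 and 138 CPM, which overlapped near 135 CPM, at 0.13 (SE 0.06). The remaining 2 genes, the GABA transporter Gat and Ekar, had group means of 30.5 to 38.6 CPM, overlapped in both states and had log2 fold changes between -0.14 and 0.19.

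**Figure D3:**
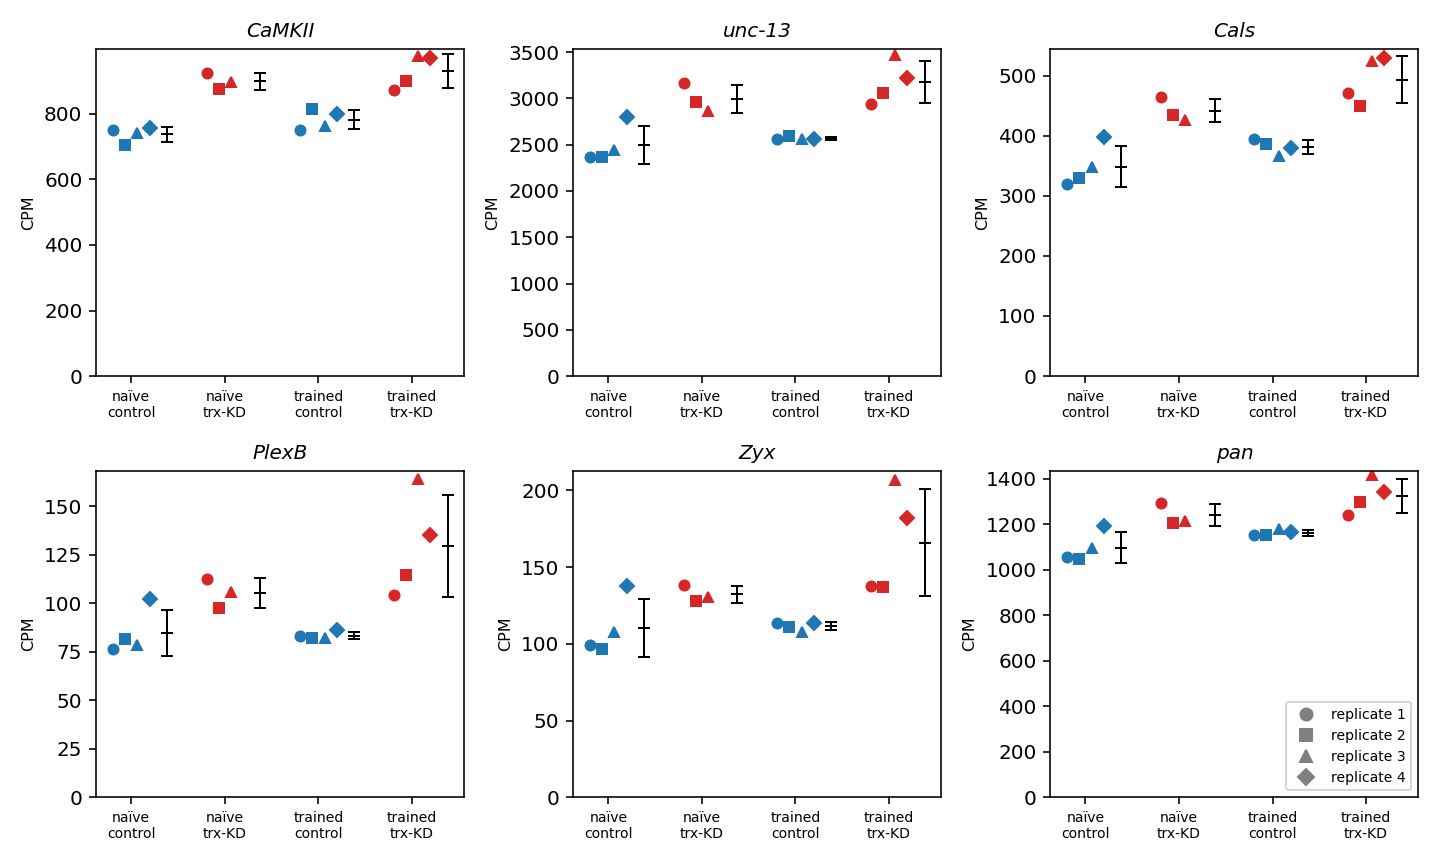
CPM of CaMKII, unc-13, Cals, PlexB, Zyx and pan in each of the 15 libraries by group, with the mean and 1 standard deviation beside the points and axes from 0. In trained flies every trx-KD library is above every control for all 6 genes, and trx-KD library 3 is the highest for all but Cals.

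All 4 guidance genes, a pair of plexins that receive semaphorins and the receptor and ligand of Eph signaling, were above 0 in both states. Their median log2 fold change was 0.22 in naïve flies with 1 past the threshold and 0.31 in trained flies with 3 past it.

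PlexB had the largest fold change of all members in trained flies. It was at 76.2, 81.8, 78.6 and 102 CPM in naïve controls and at 113, 97.6 and 106 CPM in naïve trx-KD, where control library 4 overlapped, and its log2 fold change was 0.32 (SE 0.10). In trained flies controls stood at 83.3, 82.2, 82.0 and 86.0 CPM and trx-KD at 104, 114, 164 and 135 CPM, a log2 fold change of 0.63 (SE 0.12), or 1.551-fold. It overlaps the antisense gene asRNA:CR45124.

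PlexA measured 455, 446, 463 and 603 CPM in naïve controls and 603, 528 and 543 CPM in naïve trx-KD. Trained controls were at 525, 511, 497 and 491 CPM and trained trx-KD at 579, 570.5, 695 and 675 CPM, so that the groups were apart only after training. The log2 fold changes were 0.19 (SE 0.11) and 0.32 (SE 0.07).

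The receptor Eph had 225, 219, 225 and 283 CPM in naïve controls against 301, 264 and 278 CPM in naïve trx-KD. With 252, 244, 250.4 and 232 CPM in trained controls and 284, 283, 325 and 319.7 CPM in trained trx-KD it too was apart after training alone, at 0.24 (SE 0.09) and 0.31 (SE 0.06). Its ligand Ephrin was apart in both, with means of 169 ± 12.3 (SD, n = 4) and 193 ± 7.32 CPM (SD, n = 3) in naïve and 184 ± 3.03 and 195 ± 5.21 CPM (SD, n = 4 each) in trained controls and trx-KD.

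Of the 14 members that act in transcription, 11 were above 0 in naïve flies (median 0.13, 2 past the threshold, or 14.3%, near the share of all genes) and 14 in trained flies (median 0.19, 6 past it). The genes pan and lgs belong to Wnt signaling, pan as its DNA-binding factor and lgs as a cofactor that ties beta-catenin to Pygopus. Naïve controls had 1054, 1047, 1094 and 1195 CPM of pan and naïve trx-KD 1295, 1207 and 1215 CPM. For trained flies the values of pan were 1153, 1152, 1178 and 1167 CPM in controls and 1241, 1298, 1417 and 1340 CPM in trx-KD. The groups did not overlap in either state, and log2 fold changes were 0.18 (SE 0.07) and 0.19 (SE 0.05).

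For lgs the naïve values were 181, 182, 186 and 194 CPM in controls and 206, 197 and 203 CPM in trx-KD. Trained values were 192, 187, 186 and 187 CPM against 209, 213, 224 and 208 CPM. These groups were apart too, with log2 fold changes of 0.13 (SE 0.06) and 0.18 (SE 0.05).

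The Hedgehog effector ci showed no separation. Naïve controls measured 39.6, 40.8, 33.4 and 39.9 CPM and naïve trx-KD 42.5, 34.4 and 39.5 CPM, and trained controls measured 32.6, 41.5, 41.9 and 42.4 CPM. Trained trx-KD libraries were at 38.0, 34.8, 64.1 and 48.2 CPM, so that the 0.22 (SE 0.17) on the log2 scale in trained flies came with library 3 as the highest, beside 0.02 (SE 0.10) in naïve flies.

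Among other transcription factors onecut was apart in both states at 0.30 (SE 0.09) and 0.20 (SE 0.06), and MED26, a Mediator subunit, likewise at 0.21 (SE 0.06) and 0.27 (SE 0.09). Hcf, a cofactor of chromatin complexes, had 0.12 (SE 0.07) and 0.25 (SE 0.08), and NfI, a nuclear factor I protein, 0.05 (SE 0.09) and 0.21 (SE 0.07). The lysosomal regulator Mitf had 0.19 (SE 0.07) and 0.17 (SE 0.11). Near 0 in both states were the zinc finger homeodomain factor zfh2, at -0.04 (SE 0.07) and 0.02 (SE 0.04), the Pax gene sv and Sox102F, at -0.06 (SE 0.07) and 0.04 (SE 0.09). The remaining 3, fd102C, fuss and dati, had values of 0.13 to 0.24 and overlapped in both states.

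Of 8 genes of the cytoskeleton, adaptors and kinases, 5 were above 0 in naïve flies (median 0.17, 3 past the threshold) and 7 in trained flies (median 0.24, 4 past it). Zyx encodes zyxin, an actin-associated LIM protein. Its values were 99.2, 96.5, 108 and 138 CPM in naïve controls and 138, 128 and 131 CPM in naïve trx-KD, and 114, 111, 108 and 114 CPM in trained controls and 138, 137, 207 and 182 CPM in trained trx-KD. At log2 fold changes of 0.26 (SE 0.11) and 0.57 (SE 0.12) it was apart after training alone. On the other strand it overlaps apolpp, a lipoprotein gene of the fat body with a mean of 3657 CPM, and whether the counting used strand was not given in the sources used here.

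The small GTPase gene Arl4 was the member whose genotype values differed most between the states. Naïve controls measured 43.8, 41.4, 38.5 and 66.3 CPM and naïve trx-KD 51.2, 42.1 and 48.4 CPM, at a log2 fold change of -0.01 (SE 0.17). Trained controls measured 40.1, 42.6, 40.2 and 41.5 CPM and trained trx-KD 50.9, 48.6, 72.9 and 71.2 CPM, at 0.57 (SE 0.13). The naïve groups overlapped, and control library 4 was the highest of its group.

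Ank, an ankyrin that anchors membrane proteins to spectrin, was at 365, 379, 373 and 417 CPM in naïve controls and 460.4, 432 and 438 CPM in naïve trx-KD. Trained controls had 386, 378, 405 and 394 CPM and trained trx-KD 440.2, 463, 566 and 522 CPM. It was apart in both states at 0.21 (SE 0.07) and 0.35 (SE 0.07).

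Asator, a tau-tubulin kinase family member, showed 570.4, 553, 571 and 606 CPM in naïve controls and 694, 644 and 626 CPM in naïve trx-KD. With 587, 603, 579 and 593 CPM in trained controls and 623, 679, 777 and 697 CPM in trained trx-KD it was apart again, at 0.19 (SE 0.07) and 0.23 (SE 0.06).

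The values of bt were the least steady of the set. Its CPM ran from 1705 to 3195 in naïve controls, 1691 to 2343 in naïve trx-KD, 1483 to 3498 in trained controls and 1585 to 3757 in trained trx-KD. Log2 fold changes of -0.30 (SE 0.18) and -0.04 (SE 0.30) were within that spread. The kinesin Kif3C, whose libraries are listed with the training response, had 0.30 (SE 0.09) and 0.13 (SE 0.09) and was apart in naïve flies alone. The kinase Dyrk3 had 0.14 (SE 0.09) and 0.26 (SE 0.10), and the adaptor Crk -0.01 (SE 0.12) and 0.14 (SE 0.07).

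The 3 ligands of the TGF-beta family were unlike each other in naïve flies. Actbeta, an activin, measured 104, 102, 103 and 119 CPM in naïve controls and 139, 128 and 124 CPM in naïve trx-KD, and 117, 116, 114 and 114 CPM in trained controls and 123, 131, 146 and 135 CPM in trained trx-KD. It was apart in both states at 0.29 (SE 0.08) and 0.22 (SE 0.06). Maverick (mav) had -0.22 (SE 0.10) and 0.06 (SE 0.12), and myoglianin (myo) -0.05 (SE 0.12) and 0.30 (SE 0.11), and both overlapped in both states.

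The 5 genes of RNA, DNA, protein turnover and transport had medians of 0.05 in naïve and 0.16 in trained flies, with 0 and 2 past the threshold. The DNA glycosylase gene Tdg had 809.6, 769.7, 803 and 964 CPM in naïve controls and 905, 832 and 854 CPM in naïve trx-KD, which overlapped, at 0.05 (SE 0.08). After training it had 786, 838, 859 and 864 CPM in controls and 918, 938, 1231 and 1035 CPM in trx-KD, without overlap, at 0.30 (SE 0.09). Its end overlaps zfh2 on the other strand. The microRNA effector gw was apart in both states, at 0.12 (SE 0.06) and 0.16 (SE 0.05). The zinc transporter gene Zip102B had 0.05 (SE 0.08) and 0.25 (SE 0.12), the DNA repair factor Rad23 had 0.13 (SE 0.09) and 0.11 (SE 0.07), and Pur-alpha, a single-strand nucleic acid binder, had -0.06 (SE 0.09) and 0.02 (SE 0.08).

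Genes of chromosome 4 outside the list were used as a comparison within the chromosome. In naïve flies 44 of them were tested, 26 of them above 0 and the median at 0.04, with 7 past the threshold as higher and 2 as lower. In trained flies it was 45, with a median of 0.21, 33 above 0, and 15 higher and 2 lower. The naïve median was thus nearer to that of all genes than to that of the members, and the trained median was close to that of the members. The 33 protein-coding ones had medians of 0.04 and 0.19. On the 5 other chromosome arms the medians ran from -0.03 to -0.01 in naïve and from -0.04 to -0.02 in trained flies.

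**Figure D4:**
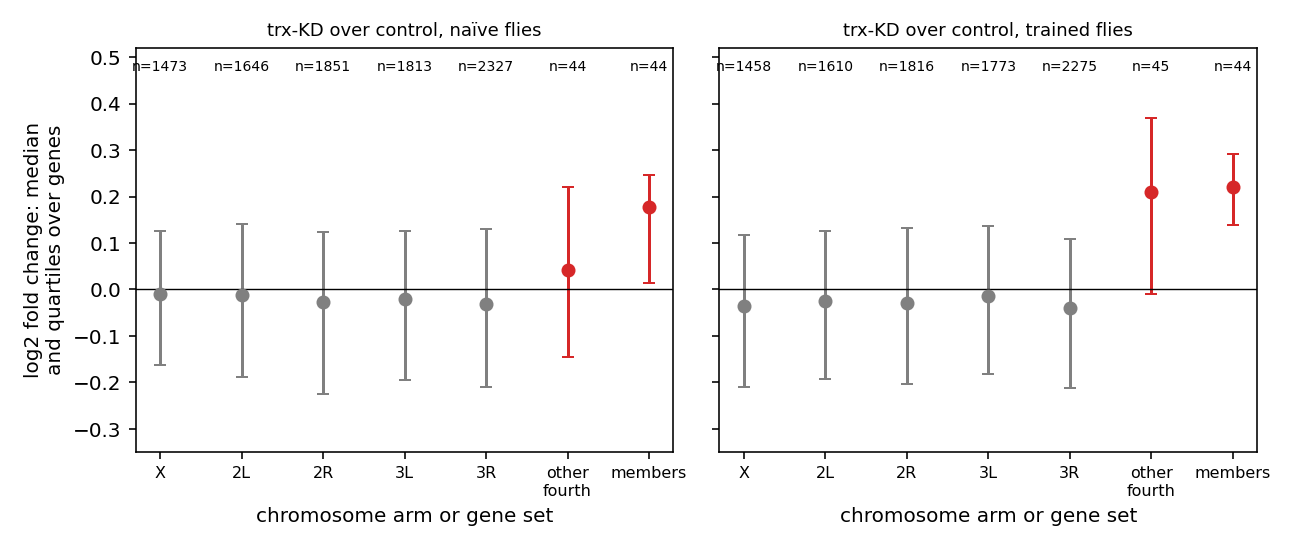
Median and quartiles over genes of the log2 fold change of trx-KD over control for 5 chromosome arms, for the genes of chromosome 4 outside the list and for the 44 members, in naïve flies (left) and trained flies (right), with the number of genes above each. The arms center near 0, and the members at 0.18 and 0.22.

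Examples of these other genes went both ways. The noncoding gene lncRNA:CR44024 was higher by 0.40 (SE 0.11) and 0.44 (SE 0.06). CaMKI, a further calcium-dependent kinase, had 0.22 (SE 0.16) and 0.53 (SE 0.11), and naïve control library 4, at 582 CPM, was the outlying one among controls at 350.3 to 356 CPM. On the low side were CG11076, at -0.31 (SE 0.09) and -0.27 (SE 0.09), CG33521, at -0.35 (SE 0.13) and -0.12 (SE 0.25), and apolpp, at -0.46 (SE 0.09) in naïve and 0.08 (SE 0.12) in trained flies. The Pax6 genes ey and toy, which mark Kenyon cells, also lie on chromosome 4. For ey the genotype values were -0.08 (SE 0.09) and -0.06 (SE 0.08), and for toy 0.01 (SE 0.12) and 0.27 (SE 0.07).

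Position along the chromosome was examined by dividing the members by start site. The first 15 (positions 32478 to 488994) had medians of 0.13 in naïve and 0.23 in trained flies, and the last 14 (836986 to 1271759) had 0.24 and 0.23. The middle 15 (501810 to 834393) had -0.04 and 0.16, with 7 and 13 above 0. The middle stretch holds bt, mav, Ekar, Gat, myo, zfh2, Pur-alpha and Sox102F, which are 8 of the 11 members below 0 in naïve flies. The division covers members alone, and genes outside the list went both ways there. In naïve flies CG1909 was at 0.36 (SE 0.06) and CG11360 at 0.32 (SE 0.07), and ND-49 was at -0.14 (SE 0.09) and ey at -0.08 (SE 0.09).

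Gene length and level were set beside the shift because long genes differed by genotype elsewhere as well. In trained flies the 11 members longer than 20000 bases had a median of 0.17, against 0.08 for 936 such genes on other arms, of which 29.9% passed the threshold. The 28 members of 5000 to 20000 bases had 0.23 against -0.01 for 2134 genes, of which 14% passed. By level, the 20 members above 200 CPM had 0.24 against 0.08, the 16 between 50 and 200 CPM had 0.20 against 0.00, and the 8 below 50 CPM had 0.20 against -0.07. In naïve flies the longest class had 0.18 against 0.09, the class of 5000 to 20000 bases 0.19 against 0.01, and the level above 200 CPM 0.18 against 0.06. The 5 members shorter than 5000 bases had -0.01 in naïve flies against -0.06 elsewhere. In naïve flies 7 of 20 members above 200 CPM passed the threshold, beside 26.4% of such genes on other arms. Between 50 and 200 CPM it was 4 of 14, beside 23.2%, and below 50 CPM 1 of 10, beside 9.75%. In trained flies it was 16 of 20, beside 33.3%, then 7 of 16, beside 18%, and 0 of 8, beside 9.18%.

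Among the lists of cell type markers, that of Kenyon cells was higher mainly in the trained comparison, and the other lists varied. Of the 15 Kenyon cell markers, 7 passed the threshold as higher in trained trx-KD (median 0.18) and 1 in naïve trx-KD (median 0.06). Of all genes, 7.12% and 6.27% passed as higher in these comparisons, and 6.78% and 7.88% as lower. Above 200 CPM, a class that holds mub, Dop1R2 and sNPF, 33.3% of genes on other arms passed in trained flies, with a median of 0.08. Of the 7 markers 1, toy, lies on chromosome 4 itself. The summed levels of the list in trained flies did not overlap, as given above. The 4 glial markers tested had medians of -0.16 in naïve flies (0 higher, 2 lower) and -0.20 in trained flies (0 higher, 1 lower). For 5 photoreceptor markers the medians were -0.10 and -0.13 with 0 called by edgeR, and 0 and 2 had an unadjusted p under 0.05. Fat body and hemocyte markers summed to 4507 to 6423 CPM in naïve controls and 3624 to 3875 CPM in naïve trx-KD (2 of 5 lower), and to 3314 to 3543 and 2713 to 4387 CPM in trained controls and trx-KD (3 of 5 higher). Yp1, 1 of these 3, was at 142 CPM in trained trx-KD library 4 and at most 1.13 CPM in every other library. Most of the sum was apolpp, itself on chromosome 4, which had 0.08 (SE 0.12) in trained flies and was not called there. The 4 markers of other neurons tested had medians of 0.13 (1 higher, 1 lower) and 0.06 (0 called, 1 with p under 0.05). The part of these differences in the shift of the members was not tested, and in such bulk libraries more nuclei of a type cannot be told apart from more RNA per nucleus.

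The known binding and silencing factors of the chromosome were followed as a list of 12 genes, of which 11 were tested in naïve and 10 in trained flies. By edgeR 0 passed the threshold in either comparison, and 1 and 2 had an unadjusted p under 0.05. Su(var)3-9 was at 0 in every library and could not be tested. The gene egg, at a mean of 0.30 CPM and at most 18 counts in a library, was tested in naïve but not in trained flies. For both, the absence of a call says nothing about a change. By DESeq2 0 passed in naïve flies and 1, Lhr, was higher in trained flies. Pof measured 8.62, 9.76, 8.92 and 7.44 CPM in naïve controls and 9.59, 10.9 and 9.33 CPM in naïve trx-KD, with log2 fold changes of 0.20 (SE 0.12) in naïve and -0.01 (SE 0.14) in trained flies.

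The response to training was tested next, within each genotype, in fits that share their libraries with the genotype comparisons. In controls 27 members were above 0 and 17 below, with a median of 0.02, beside 0.00 over 9255 genes. A single member passed, Kif3C, beside 4.38% of all genes, 1.03% as higher and 3.35% as lower. Kif3C measured 19.4, 18.8, 19.6 and 18.8 CPM in naïve controls and 25.2, 23.6, 23.3 and 21.8 CPM in trained controls, so that it rose without overlap by 0.28 (SE 0.08, edgeR adjusted p = 0.0793). The call was lost without any 1 of 7 of the 8 libraries, and it held without naïve control library 4. There 6 members (13.6%) passed, all higher, beside 7.62% of all genes. The median over members was then 0.08, with 35 above 0 and 9 below. With any other library left out, 21 to 29 members were above 0. In trx-KD flies Kif3C had 25.5, 23.5 and 21.4 CPM when naïve and 23.1, 28.2, 26.7 and 24.9 CPM when trained, at 0.13 (SE 0.11, edgeR adjusted p = 0.649). It overlaps CG32017 on the other strand.

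In trx-KD flies 40 members were above 0 after training and 4 below, with a median of 0.10, beside 0.00 over 9370 genes. The genes of chromosome 4 outside the list had a similar median of 0.11, with 39 of 46 above 0. By edgeR 0 members passed, beside 0.534% of all genes, and by DESeq2 also 0. An unadjusted p under 0.05 was found for 6 members, beside 1122 of all 9370 genes. Whether the share differed between members and all genes was not tested. The 6 were zfh2, Tdg, Arl4, PMCA, Zyx and Cals. The largest of these was Arl4, at 0.37 (SE 0.15, edgeR adjusted p = 0.399), and zfh2, at 0.15 (SE 0.05), had the lowest adjusted p of the set, 0.331 by edgeR. The group median rested on trained trx-KD libraries 3 and 4, since it was 0.01 without them, with 24 members above 0 and 20 below. Of the Kenyon cell markers 15 of 15 were above 0 in the same comparison, with a median of 0.17 and 0 past the threshold by edgeR, 9 of them with an unadjusted p under 0.05.

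**Figure D5:**
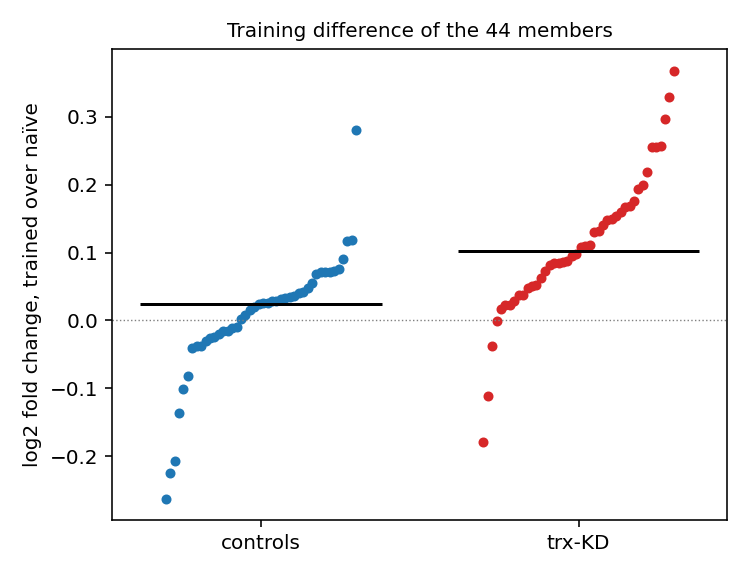
Log2 fold change of trained over naïve flies for each of the 44 members, in order of value within controls (blue) and trx-KD (red), with lines at the medians of 0.02 and 0.10. Kif3C is the topmost point of the controls and Arl4 that of trx-KD.

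Genotype and training together were fitted as an interaction over all 15 libraries, which is the difference of the 2 genotype differences as well as of the 2 training responses. Since it is built from the genotype differences, the member values and p-values given here are a description from which nothing is inferred. The median over members was 0.06, with 34 above 0 and 10 below, beside -0.01 over 9749 genes. For the 48 genes of chromosome 4 outside the list it was larger, 0.18, with 37 above 0 and 11 below. By edgeR 0 members and 0 genes in all passed (0%), while 1055 genes had an unadjusted p under 0.05, and DESeq2 called 24 genes with 0 members among them. Arl4 was the member with an unadjusted p under 0.05, at 0.58 (SE 0.23, edgeR adjusted p = 0.417). PlexB, at 0.32 (SE 0.17, edgeR adjusted p = 0.499), and Zyx, at 0.31 (SE 0.18, edgeR adjusted p = 0.523), did not pass. The genotype value was larger in trained than in naïve flies for 34 of 44 members, and none passed the threshold for this difference. Without naïve control library 4 the interaction median was 0.02, and without trained trx-KD libraries 3 and 4 it was 0.00.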

How the data were processed

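Nuclear RNA of the MB was sequenced from 15 pools of fly heads. The deposited tables hold raw counts per gene and library, made by the authors with STAR 2.5.3a and HTSeq 0.7.1 against dm6, as the submitters' processing notes list them; the annotation and strand setting were not given in the sources used here. The row of the nuclear tag (0.437% to 0.681% of counts) was left out. Members and lists were chosen with earlier results of these data known. Members were matched by gene ID to the BDGP6.54 annotation.

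Counts were tested with edgeR 4.0.16 (R 4.3.3), with TMM scaling, filterByExpr (minimum count 10, minimum total 15), glmQLFit and glmQLFTest on the libraries of the 2 groups compared, or on all 15 for the interaction. P-values were adjusted by Benjamini-Hochberg over all genes that passed, and an adjusted p under 0.1 counted as called. SE is the log2 fold change over the square root of F. CPM use TMM over all libraries, and log2 CPM a prior count of 2. The scripts were tested on simulated data. Of 21 replicate pairs within groups none agreed within sampling noise (chi-square per degree of freedom at least 7.54). The lowest count of a member was 155.

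Named in full are the 20 members with the smallest p in any comparison among those called with a mean of at least 8 CPM, and ci in any case; of the other genes of the chromosome, ey, toy, and, at a mean log2 CPM of at least 3, the 3 highest and 3 lowest mean genotype values, of which 1 is not reported here. The list of 12 genes of chromatin proteins and 5 lists of cell type markers are reported as counts. CG1909, CG11360 and ND-49 are named as examples beside the division by position. Alternatives were DESeq2 1.42.0, scaling by the upper quartile or by library size, no filter on counts, a replicate block, all libraries in 1 fit, an adjusted p under 0.05 and each library left out.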

Additional observations from a re-analysis of the deposited data

Results flagged for a closer look

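In the 3 groups of 4 libraries, 135 sets of values, of each member and of the median over members, were checked for a library whose gap to the next was large against the range of the group, and 10 stood out, where chance gives about 1 in 20. Naïve control library 4 was the high one in 4 of them, with Eph at 282.5 CPM (others 219.2 to 225.4), PlexA at 602.6 CPM (446.2 to 463.2), Actbeta at 119 CPM (101.6 to 104.4) and Dyrk3 at 190.5 CPM (158.1 to 162.2). The gene ci was low in naïve control library 3, at 33.43 CPM (39.6 to 40.79), and in trained control library 1, at 32.56 CPM (41.52 to 42.41). Trained control library 4 was high for Hcf, at 207.8 CPM (201.6 to 202.5), and trained control library 2 for unc-13, at 2598 CPM (2558 to 2562), both small steps above tightly grouped values. Among trained trx-KD, library 2 was low for Ekar, at 26.18 CPM (31.73 to 32.11), and library 3 high for Slip1, at 169.9 CPM (147.9 to 149.8).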

How the results depend on the processing

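No median over the members and no member that had passed changed direction under the alternatives, except that the near-zero median of training in controls ran from -0.003 to 0.08 with 1 library left out. In naïve flies, where 12 members passed beside 14.2% of all genes, the replicate block gave 29 (28 higher, and bt lower) beside 28.8%, and an adjusted p under 0.05 gave 5 beside 7.46%. As no naïve trx-KD library was numbered 4, the block fitted naïve control library 4 by itself. The genotype difference in that fit thus rested on the other naïve libraries, much as when library 4 was left out. With 1 library left out the count ran from 1 (without naïve trx-KD library 1 or 2, beside 5.2% and 3.43%) to 28 (without naïve control library 4, beside 27.4%), and in trained flies, where 23 passed, from 13 to 27 (beside 5.31% to 19.4%). Without trained trx-KD libraries 3 and 4 together it was 13, and the median of training in trx-KD was 0.012. For training in controls, the 1 call became 0 under library-size scaling, no filter, the replicate block and an adjusted p under 0.05, and 0 to 6 with 1 library left out. Medians with 1 library left out ran from 0.13 to 0.22 in naïve flies, 0.16 to 0.27 in trained flies, 0.05 to 0.13 for training in trx-KD and 0.02 to 0.12 for the interaction, and the last 2 had 0 members called throughout. DESeq2 gave 16 and 27 members for the genotype comparisons, beside 16.8% and 19% of all genes, and library-size scaling 11 and 16, beside 13.4% and 15.3%. Apart from the replicate block in naïve flies, the cause of the differences between settings was not tested. Equal replicate numbers did not pair the libraries (r from -0.12 to 0.14 over 21 pairs, 2 above 0.1).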
